A study of Mus musculus with 8 samples.

Results

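Described here are 38 mouse genes of glycolysis and of the response to hypoxia-inducible factor 1 (HIF-1), out of 43346 genes in the deposited count table. They were chosen by name, from a list of glycolysis and hypoxia response genes, and all 38 were found by symbol. All 38 also passed the filter on low counts and were tested. They comprise 3 glucose transporters, 3 hexokinases, 9 further genes of upper glycolysis, 7 genes of lower glycolysis, 4 genes of lactate formation and monocarboxylate transport, 3 pyruvate dehydrogenase kinases, the HIF-1 subunit gene Hif1a with 2 of its hydroxylases, and 6 other HIF-1 targets.

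Polyadenylated RNA was sequenced from 3 kinds of mouse macrophage, each 3 h after lipopolysaccharide (LPS), the bacterial cell wall component sensed by TLR4, and unstimulated (0 h, called rest). The cell type labelled hMPDM had 1 library after LPS and 1 at rest, and so had RAW 264.7 (RAW), a single macrophage-like mouse tumour line kept in DMEM with serum. Bone marrow-derived macrophages (BMDM), grown in L929-conditioned medium, had 2 libraries after LPS and 2 at rest. No genetic change, strain, sex or age is stated for any group, and the sources used here give neither the LPS dose nor what hMPDM stands for. Whether the 2 BMDM replicates of a state come from different cultures is not stated, and a p-value here covers just the spread seen between such libraries.

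Glycolysis splits glucose into pyruvate in the cytosol, with early steps that spend ATP and later steps that regain it, and lactate dehydrogenase turns pyruvate into lactate that monocarboxylate transporters carry out of the cell. HIF-1 is a transcription factor whose alpha subunit is hydroxylated by oxygen-dependent prolyl hydroxylases and then degraded, and when it persists it binds promoters and enhancers of glucose transporter, glycolytic and angiogenic genes. In macrophages, LPS is known to raise glucose uptake and lactate release and to induce Hif1a through NF-kB.

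Library totals ran between 3116434 counts (RAW at rest) and 19307312 counts (BMDM at rest), and levels below are CPM (counts per one-millionth of the library total) scaled by TMM, a method that assumes most genes do not change. On that scale a count of 0 allows up to 3 counts, which are 0.784 CPM in the shallowest library and 0.145 CPM in the deepest. The fitted coefficient of variation between BMDM replicates was 2.38%, and replicates of a state differed by more than sampling noise. Summed levels of 8 macrophage markers were 17662 CPM after LPS and 14419 CPM at rest in hMPDM, 17560 and 15205 CPM in RAW, and 18468 and 19099 CPM against 14915 and 14691 CPM in BMDM. Markers of fibroblasts, T, NK, B and erythroid cells summed to at most 0.453 CPM in any library, and those of mast cells to at most 2.70 CPM. The 6 neutrophil markers summed to 23.3 CPM after LPS and 15.9 CPM at rest in hMPDM, 4.28 and 4.45 CPM in RAW, and 76.7 and 70.8 CPM after LPS, against 42.8 and 49.1 CPM at rest, in BMDM, mostly S100a8 and S100a9, with Ly6g at 0 in 7 of the 8 libraries. The part of these shifts in the results was not tested. In the hMPDM library after LPS, 16 genes near absent from hMPDM at rest, chosen on their values, stood at 10.8% of their BMDM level after LPS, against 1.35% at rest, and the part of such reads in the hMPDM values is given below as a count with that share taken out.

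After 3 h of LPS, BMDM had higher levels of the glucose transporters Slc2a6 and Slc2a1, all 3 hexokinases, the phosphofructokinase genes Pfkl and Pfkp, Pfkfb3, the lactate exporter Slc16a3 and Hif1a. Levels of Vegfa and the carriers Slc2a3 and Slc16a1 were lower, and the most abundant glycolytic enzymes differed by under 1.5-fold. The prolyl hydroxylase genes Egln1 and Egln3 were called lower by edgeR but not by DESeq2. Of the 38 genes, 20 (52.6%) were higher and 9 (23.7%) lower after LPS (edgeR quasi-likelihood test, Benjamini-Hochberg adjusted p under 0.05), against 31.7% of all 12461 tested genes higher and 31.1% lower. The rises depend on how libraries are scaled, as library totals instead of TMM move the median log2 difference of all genes to -0.38, against -0.02 with TMM. Under each of 4 scalings, 13 of the 38 genes (34.2%) were called higher, against 16.0% of all genes, and 9 lower, against 31.0% of all genes. Upper quartile and library size scaling shift BMDM values down, so a fall with TMM could hardly be lost by this rule. With library size scaling alone, 13 were higher and 20 lower. DESeq2's Wald test called 17 higher and 3 lower (Vegfa, Slc2a3 and Slc16a1), and edgeR with the coefficient of variation set at 10% called 15 higher and 5 lower. The median log2 difference of the 38 genes was 0.21 with TMM and -0.15 with library size. A test against a fold of 2 called 5 genes higher (Slc2a6, Adm, Hk2, Eno2 and Slc2a1), against 8.27% of all genes, and 1 lower (Vegfa), against 4.21%. Slc2a6, Hk2 and Adm kept that call under all 4 scalings, against 6.29% of all genes. Summed over the 38 genes, the level was 8000 and 8323 CPM in BMDM after LPS, against 5957 and 5854 CPM at rest, and with library size scaling 6638 and 6901 CPM after LPS, against 6362 and 6261 CPM at rest. In bulk RNA, fewer cells with a transcript and less transcript per cell cannot be told apart.

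**Figure D1:**
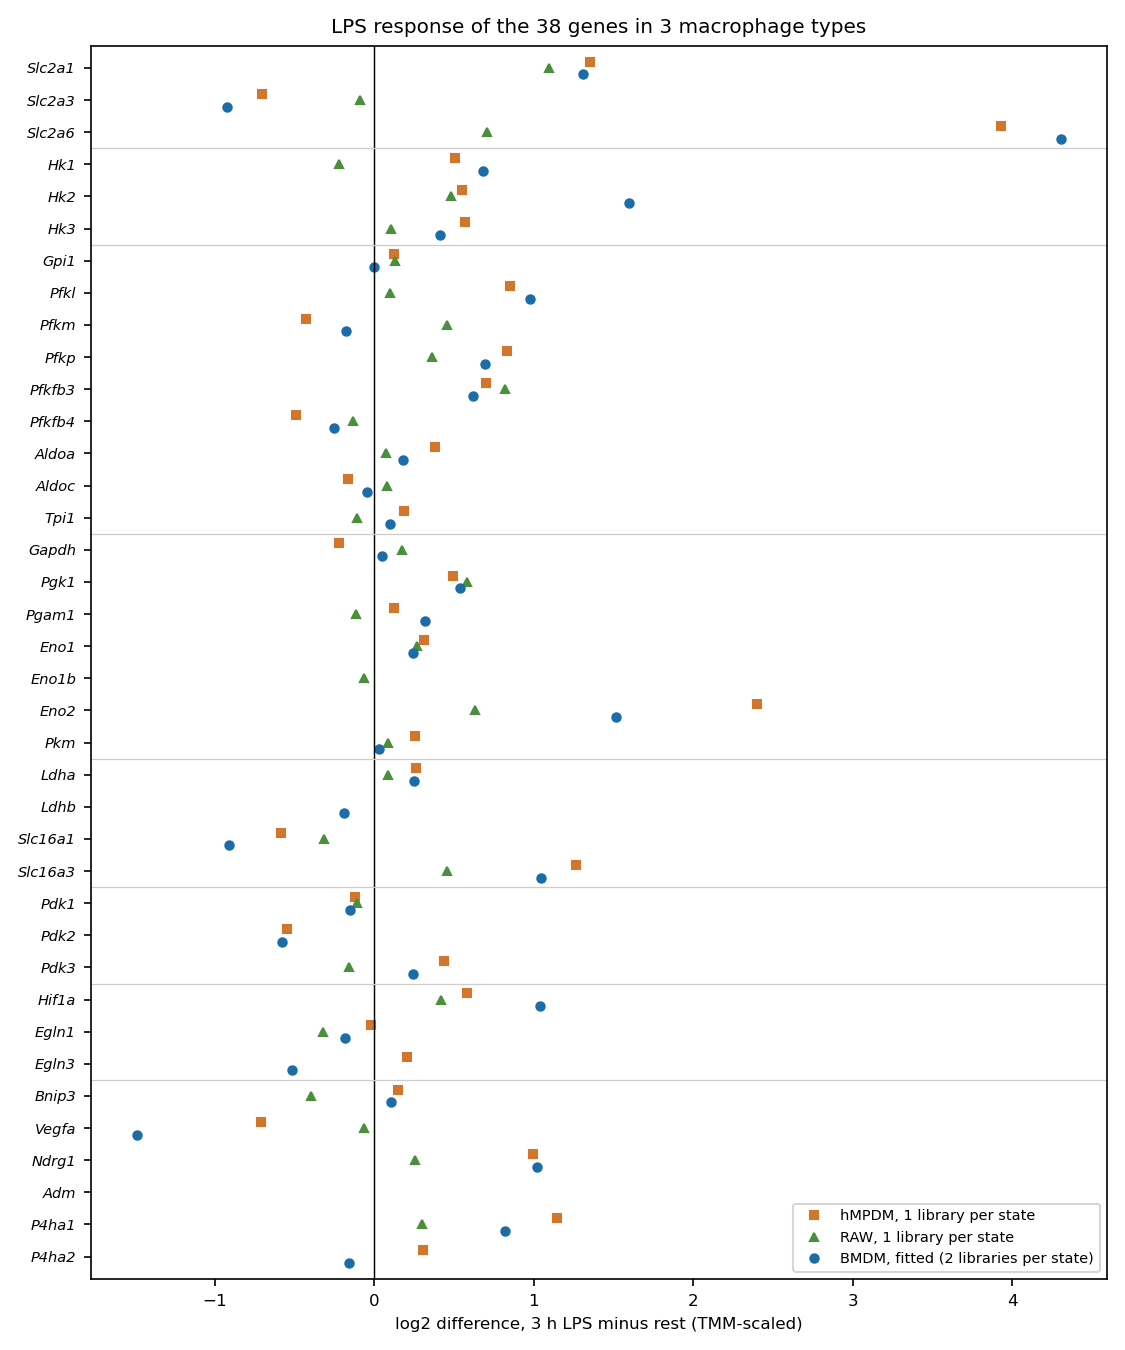
LPS response of the 38 genes, ordered by role from glucose transporters at the top to other HIF-1 targets at the bottom, as the log2 difference of TMM-scaled levels after 3 h of LPS minus rest; squares are hMPDM and triangles RAW (1 library per state, no test), circles the fitted BMDM value (2 libraries per state), and points with under 10 counts in both hMPDM or RAW libraries are left out, as are BMDM points for Eno1b and Adm. Slc2a6 stands at 4.31 in BMDM and 0.71 in RAW, and Vegfa is the lowest point at -1.49 in BMDM.

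**Figure D2:**
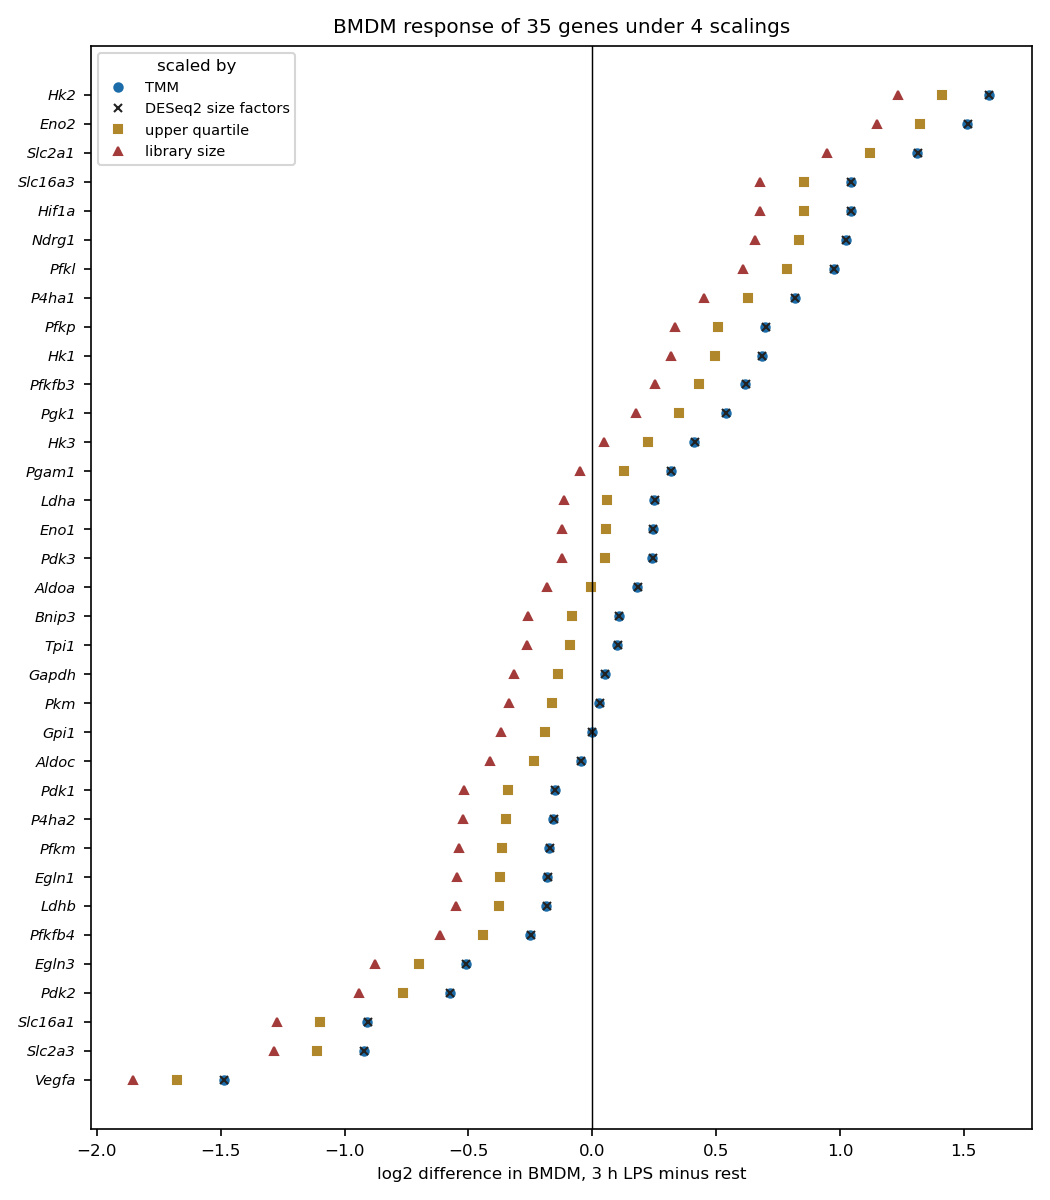
BMDM log2 difference after 3 h of LPS minus rest for 35 of the 38 genes (Slc2a6, Adm and Eno1b are off the scale or too sparse) under 4 scalings, sorted by the TMM value. TMM and DESeq2 size factors nearly coincide, upper quartile and library size shift every gene to the left, and genes such as Ldha (0.25 with TMM, -0.12 with library size) cross 0.

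The start regions of 6 genes on which the BMDM response turns are shown because HIF-1 binds a core of A or G followed by CGTG. Each is the 250 bases before the start site from the RefSeq promoter table (GRCm38.p6), given 5′ to 3′ on the gene's own strand, and capitals mark ACGTG or, for a match on the other strand, CACGT; the G form of the core (GCGTG, or CACGC on the other strand) is not in capitals. They lie at chr2:27027999-27028248 on the minus strand (Slc2a6), chr4:119108495-119108744 on the plus strand (Slc2a1), chr6:82774455-82774704 on the minus strand (Hk2), chr11:120948817-120949066 on the plus strand (Slc16a3), chr12:73907617-73907866 on the plus strand (Hif1a) and chr17:46032378-46032627 on the minus strand (Vegfa).
Slc2a6: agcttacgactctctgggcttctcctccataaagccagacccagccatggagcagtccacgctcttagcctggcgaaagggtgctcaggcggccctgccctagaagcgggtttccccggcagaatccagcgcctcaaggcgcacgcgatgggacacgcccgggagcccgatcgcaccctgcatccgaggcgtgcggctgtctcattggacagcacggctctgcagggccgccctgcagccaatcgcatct
Slc2a1: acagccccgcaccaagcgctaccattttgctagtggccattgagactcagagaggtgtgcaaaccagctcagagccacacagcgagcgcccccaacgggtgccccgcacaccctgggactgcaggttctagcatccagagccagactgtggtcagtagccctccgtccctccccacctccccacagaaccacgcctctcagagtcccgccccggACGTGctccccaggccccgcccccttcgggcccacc
Hk2: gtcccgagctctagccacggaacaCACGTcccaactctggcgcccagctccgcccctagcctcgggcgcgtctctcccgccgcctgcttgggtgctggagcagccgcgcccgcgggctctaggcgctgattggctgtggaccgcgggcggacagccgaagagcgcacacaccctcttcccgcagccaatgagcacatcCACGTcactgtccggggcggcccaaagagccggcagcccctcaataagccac
Slc16a3: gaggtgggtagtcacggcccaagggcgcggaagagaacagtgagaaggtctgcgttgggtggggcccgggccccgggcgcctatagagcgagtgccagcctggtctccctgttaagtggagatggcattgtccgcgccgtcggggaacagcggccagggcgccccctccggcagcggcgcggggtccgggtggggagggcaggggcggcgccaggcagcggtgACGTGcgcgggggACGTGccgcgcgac
Hif1a: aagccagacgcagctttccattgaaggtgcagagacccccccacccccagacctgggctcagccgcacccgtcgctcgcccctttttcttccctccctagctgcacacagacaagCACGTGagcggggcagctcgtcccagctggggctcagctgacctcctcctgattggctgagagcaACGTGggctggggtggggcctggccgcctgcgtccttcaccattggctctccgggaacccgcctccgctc
Vegfa: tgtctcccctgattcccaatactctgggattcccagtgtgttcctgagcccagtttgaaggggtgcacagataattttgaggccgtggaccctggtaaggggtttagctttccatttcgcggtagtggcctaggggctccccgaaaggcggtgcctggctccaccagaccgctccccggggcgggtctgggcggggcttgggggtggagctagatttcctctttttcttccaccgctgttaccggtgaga

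ACGTG was found on either strand in Slc2a1 (1 match), Hk2 (2), Slc16a3 (2) and Hif1a (3, of which 2 are the strands of a single CACGTG), and in neither Slc2a6 nor this Vegfa start, while a second Vegfa start in the table held 1. GCGTG was found on either strand of the printed bases in Slc2a6 (4 matches) and Slc2a1 (1), and in none of the other 4. Over windows of 300 bases that add 50 bases after the start, 27 of 50 promoters of the listed genes held ACGTG (54.0%), against 19.6% of all 32851 promoters, and CACGTG, which contains ACGTG on both strands, was in 14.0% against 7.15%. For GCGTG the shares were 56.0% and 32.4%. Among genes with an entry, an ACGTG match was present for 7 of the 12 that were higher in BMDM under all 4 scalings, 5 of the 7 that were higher under some, 6 of the 8 that were lower and 6 of the 8 with no call. Counted by gene, with a match at any start, these are 24 of 35 listed genes, against 21.8% of all 27025 genes. The list was made to include HIF-1 targets, so the share is not independent of that choice. A match is a description of the letters and not a binding site. Ndrg1, Slc2a3 and Eno1b had no entry.

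Among the glucose transporters, Slc2a6 and Slc2a1 were higher in BMDM after LPS and Slc2a3 was lower. Slc2a6, which encodes the lysosome-associated family member GLUT6 and spans chr2:27021363-27027998 (mm10) on the minus strand, had 806 and 864 CPM in BMDM after LPS, against 44.2 and 40.7 CPM at rest. The log2 difference was 4.31 ± 0.05 (SE), a 19.8-fold rise (adjusted p = 1.30e-33, edgeR); each SE is the log2 value over the root of its F statistic. In hMPDM it had 1010.5 CPM after LPS and 66.2 CPM at rest, a ratio of 15.3 (14.3 to 16.3), and in RAW 279.8 and 171 CPM, a ratio of 1.64 (1.49 to 1.80). Brackets after the ratios of hMPDM and RAW hold exact 95% counting intervals, which cover counting error of those libraries only.

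Slc2a1, the main glucose carrier GLUT1 of the plasma membrane, had 194 and 199 CPM in BMDM after LPS, against 81.8 and 76.9 CPM at rest, a log2 difference of 1.31 ± 0.05 (adjusted p = 6.54e-21, edgeR). Its ratio was 2.56 (2.27 to 2.89) in hMPDM and 2.14 (1.92 to 2.39) in RAW, where it reached 259 CPM after LPS, the highest of the 8 libraries. Slc2a3, the high-affinity carrier GLUT3, was low in BMDM and had 8.16 and 6.56 CPM after LPS, against 14.3 and 12.8 CPM at rest, a fall of log2 -0.92 ± 0.14 (adjusted p = 7.65e-07, edgeR). RAW had 44.5 CPM of Slc2a3 after LPS and 47.3 CPM at rest, several times the level of every BMDM and hMPDM library. Per kilobase of counted length, Slc2a6 made up 78.4% and 79.2% of the 3 transporters in BMDM after LPS, against 31.0% and 30.6% at rest, when Slc2a1 led with 64.5% and 65.1%. In hMPDM the Slc2a6 share was 89.7% after LPS and 58.1% at rest, and in RAW 47.3% and 52.1%.

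**Figure D3:**
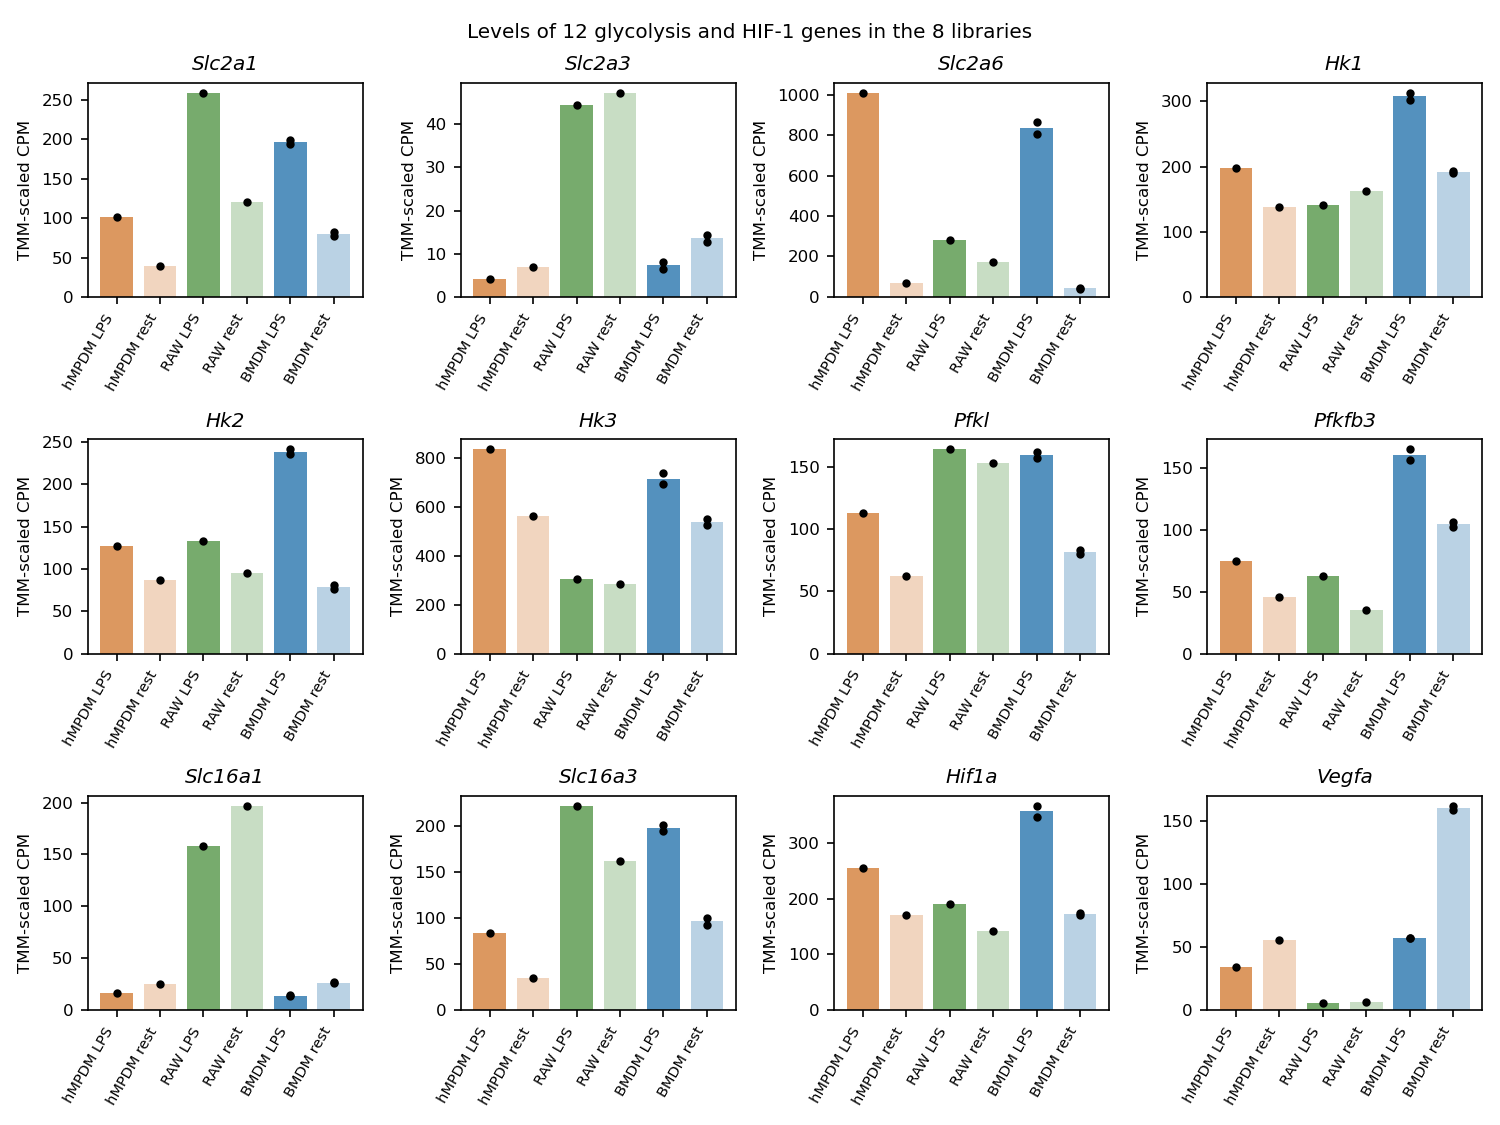
TMM-scaled CPM of 12 of the genes in the 8 libraries, LPS left of rest within each cell type; bars are the single hMPDM and RAW libraries and the mean of 2 BMDM libraries, points are libraries, and each panel has its own linear axis from 0. Slc2a6 after LPS stands at 1010.5 CPM in hMPDM, 279.8 CPM in RAW and 806 and 864 CPM in BMDM, and Slc16a1 and Slc2a3 are highest in RAW.

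All 3 hexokinases, which trap glucose in the cell as glucose 6-phosphate, were called higher in BMDM after LPS. Hk2, the inducible form, had 235 and 241 CPM after LPS, against 81.4 and 76.2 CPM at rest, a 3.03-fold rise (log2 1.60 ± 0.05, adjusted p = 2.44e-23, edgeR). The rise of Hk1, the widely expressed form, was smaller, with 303 and 313 CPM after LPS, against 193 and 191 CPM at rest (log2 0.68 ± 0.04, adjusted p = 1.11e-15, edgeR). Hk3, the form typical of myeloid cells, had 697 and 739 CPM after LPS, against 552 and 529 CPM at rest (log2 0.41 ± 0.04, adjusted p = 4.57e-11, edgeR), but only 0.05 and no call with library size scaling.

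Per kilobase, Hk3 was the most abundant hexokinase in every library, with 71.6% and 72.2% of the family in BMDM after LPS, against 80.5% and 80.3% at rest. The Hk2 share was 14.9% and 14.6% in BMDM after LPS, against 7.32% and 7.14% at rest. In hMPDM, Hk2 had 127 CPM after LPS and 86.7 CPM at rest, a ratio of 1.47 (1.33 to 1.62), with a share of the family of 7.85% after LPS and 7.89% at rest. RAW had 133 and 95.4 CPM of Hk2, a ratio of 1.40 (1.23 to 1.60), and Hk1 stood at 140.3 CPM after LPS and 163 CPM at rest, a ratio of 0.860 (0.769 to 0.961).

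In upper glycolysis, 5 of 9 genes were higher in BMDM after LPS, 1 was lower and 3 had no call, and 3 of the rises held under all 4 scalings. These 3, Pfkl, Pfkp and Pfkfb3, encode or regulate phosphofructokinase, whose reaction commits sugar to glycolysis. Pfkl, the liver-type subunit, had 157 and 162 CPM in BMDM after LPS, against 79.7 and 82.9 CPM at rest (log2 0.98 ± 0.05, adjusted p = 1.70e-17, edgeR). Pfkp, the platelet-type subunit, had 336 and 317 CPM after LPS, against 203 and 198 CPM at rest (log2 0.70 ± 0.04, adjusted p = 1.22e-15, edgeR). Pfkfb3, which makes the activator fructose 2,6-bisphosphate, had 165 and 157 CPM after LPS, against 107 and 102 CPM at rest (log2 0.62 ± 0.05, adjusted p = 8.86e-13, edgeR). Both libraries after LPS lay above both at rest for each of these genes.

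The other genes of upper glycolysis differed by less. Pfkfb4, a second enzyme of fructose 2,6-bisphosphate, was lower in BMDM after LPS, with 38.2 and 40.6 CPM against 49.1 and 45.7 CPM at rest (log2 -0.25 ± 0.07, adjusted p = 0.00223, edgeR), a call that DESeq2 did not make (adjusted p = 0.263). The aldolase gene Aldoa was the most abundant of the 38 genes per kilobase in BMDM, and was called higher with TMM (log2 0.18 ± 0.03, adjusted p = 2.28e-05, edgeR) but reversed to -0.18 with library size. Triose phosphate isomerase, Tpi1, was likewise higher with TMM (0.10) and lower with library size (-0.26), and its call was lost without the second BMDM library at rest (0.07, adjusted p = 0.237) or the second after LPS (0.07, adjusted p = 0.222, edgeR). Pfkm, Gpi1 and Aldoc, which encode the muscle-type phosphofructokinase, glucose 6-phosphate isomerase and aldolase C, had no call (log2 -0.17, -0.00205 and -0.05), although Pfkm was called lower without the second BMDM library after LPS (-0.34, adjusted p = 0.0333, edgeR). Pfkp and Pfkl were close per kilobase of counted length in BMDM after LPS, with shares of 46.1% and 43.4% for Pfkp and 46.1% and 47.4% for Pfkl. The counted length of Pfkp is 9395 bases and its main transcript has 4145, while those of Pfkl are 4395 and 3730. Per length of the main transcript, Pfkp would therefore take the larger share. RAW had more of Pfkl, at 59.5% after LPS and 64.3% at rest.

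**Figure D4:**
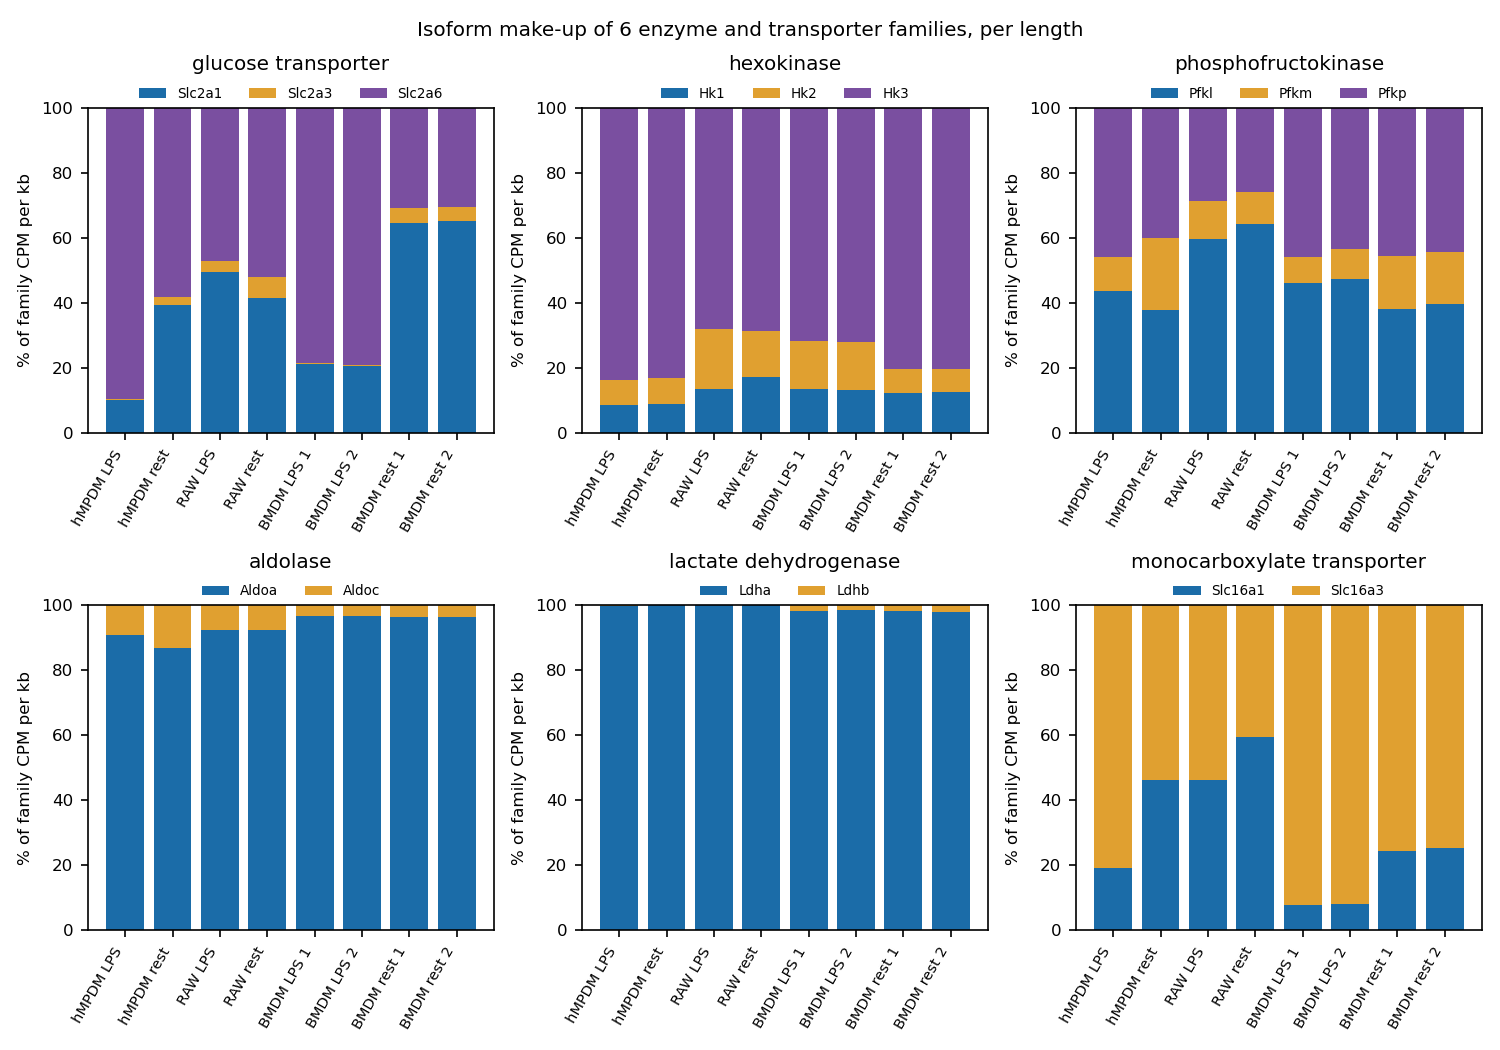
Share of each isoform in the summed CPM per kilobase of 6 families, as percent (vertical axis from 0 to 100), for each of the 8 libraries, LPS left of rest within a cell type. Slc2a6 fills most of the glucose transporter bar in BMDM and hMPDM after LPS, Hk3 most of the hexokinase bar everywhere, and Ldhb is visible only in BMDM.

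In lower glycolysis, Eno2 stood out, while the other members differed by under 1.5-fold or rested on 1 count. Eno2, the enolase best known from neurons, had 18.6 and 19.2 CPM in BMDM after LPS, against 6.75 and 6.54 CPM at rest (log2 1.51 ± 0.12, adjusted p = 1.60e-12, edgeR). In hMPDM it had 17.0 CPM after LPS and 3.06 CPM at rest, a ratio of 5.55 (3.85 to 8.06), and in RAW 17.5 and 11.2 CPM, a ratio of 1.56 (1.07 to 2.31). It remained a minor enolase per kilobase, with 12.0% and 10.9% of the family in BMDM after LPS, against 4.95% and 5.10% at rest. Pgk1, phosphoglycerate kinase, had 33.2 and 33.3 CPM after LPS, against 24.6 and 21.5 CPM at rest (log2 0.54 ± 0.08, adjusted p = 1.42e-06, edgeR), and 0.17 with no call under library size scaling. Eno1, the main enolase (0.25), and Pgam1, phosphoglycerate mutase (0.32), were called higher with TMM and reversed to -0.12 and -0.0489 with library size, and both calls were lost without the second BMDM library after LPS (adjusted p = 0.0780 and 0.314, edgeR). The pyruvate kinase gene Pkm (0.03) and Gapdh (0.05) had no call with TMM, and with library size read -0.34 and -0.32.

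Levels of several of these enzymes are uncertain because near-identical copies, many of them pseudogenes, are spread through the mouse genome, and how reads with several matches were counted is not given in the sources used here. Of the 50-base stretches of the main transcript, 84.8% of Gapdh also occurred, with at most 1 mismatch, in transcripts of 299 other genes, and the table gave Gapdh 72 and 161 counts in BMDM after LPS and 197 and 239 at rest. The shared part was 90.9% for Eno1b, 86.2% for Bnip3, 83.3% for Eno1, 68.0% for Pgk1, 59.4% for Ldhb, 56.3% for Pkm, 48.6% for Gpi1, 42.8% for Ldha and 41.5% for Pgam1. For Aldoa it was 30.6%, for Tpi1 24.0%, for Pfkp 17.1% and for Ndrg1 14.8%. It was 0 for Slc2a6, Slc2a3, all 3 hexokinases, Slc16a1, Slc16a3, Egln1, Egln3, Vegfa, Adm, P4ha1 and P4ha2, 1.87% for Slc2a1, 7.42% for Hif1a and 0.983% for Eno2. Eno1b, a near copy of Eno1, had 145 counts in RAW after LPS and 124 at rest, and in all other libraries together 1 count, in BMDM at rest.

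The lactate carriers went opposite ways in BMDM after LPS. Slc16a3, which encodes the lactate exporter MCT4 of glycolytic cells, had 195 and 201 CPM after LPS, against 100.3 and 92.8 CPM at rest, a 2.06-fold rise (log2 1.04 ± 0.05, adjusted p = 2.35e-18, edgeR). Slc16a1, which encodes the more general carrier MCT1, had 13.4 and 14.5 CPM after LPS, against 26.9 and 26.3 CPM at rest, a fall of log2 -0.91 ± 0.09 (adjusted p = 1.02e-09, edgeR). The Slc16a3 share of both, per kilobase, was 92.4% and 92.0% in BMDM after LPS, against 75.6% and 74.6% at rest. In hMPDM that share was 80.8% after LPS and 53.8% at rest, and in RAW 53.9% and 40.6%. RAW had the highest Slc16a1, 158 CPM after LPS and 197 CPM at rest.

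Ldha, which forms lactate from pyruvate, had 646 and 689 CPM in BMDM after LPS, against 574 and 552 CPM at rest, a log2 difference of 0.25 ± 0.04 with TMM (adjusted p = 9.52e-07, edgeR) that reversed to -0.12 with library size. Ldhb, the isoform that favours the return to pyruvate, was low in BMDM, at 5.89 and 5.14 CPM after LPS and 5.56 and 6.63 CPM at rest, with no call (log2 -0.19). The pyruvate dehydrogenase kinases, which keep pyruvate out of the mitochondrial cycle, had no member that was called higher. Pdk2 was lower by log2 -0.58 ± 0.18 (adjusted p = 0.00658, edgeR) and Pdk1 by -0.15 ± 0.06 (adjusted p = 0.0209, edgeR), and Pdk3 had no call (0.24, adjusted p = 0.0691). DESeq2's Wald test called neither Pdk2 (adjusted p = 0.448) nor Pdk1 (adjusted p = 0.511). The Pdk1 call was lost without the first BMDM library at rest (-0.13, adjusted p = 0.0908) or the second after LPS (-0.05, adjusted p = 0.613), and that of Pdk2 without the second at rest (-0.42, adjusted p = 0.0850) or the first after LPS (-0.42, adjusted p = 0.0590, edgeR).

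Hif1a itself was higher in BMDM after LPS, and the 2 hydroxylase genes were called lower by edgeR but not by DESeq2. Hif1a had 367 and 348 CPM after LPS, against 171 and 174 CPM at rest, a 2.06-fold rise (log2 1.04 ± 0.04, adjusted p = 4.49e-20, edgeR). Its ratio was 1.5 (1.40 to 1.60) in hMPDM and 1.34 (1.20 to 1.49) in RAW. Egln3 encodes the prolyl hydroxylase PHD3, itself a known HIF target, and had 19.9 and 20.0 CPM in BMDM after LPS, against 29.0 and 28.0 CPM at rest (log2 -0.51 ± 0.09, adjusted p = 5.94e-06, edgeR; DESeq2 adjusted p = 0.178). Egln1, which encodes the main oxygen sensor PHD2, was lower by log2 -0.18 ± 0.07 (adjusted p = 0.0177, edgeR), a call lost without the second BMDM library at rest (-0.12, adjusted p = 0.236) or the first after LPS (-0.13, adjusted p = 0.102). DESeq2's Wald test did not call Egln1 (adjusted p = 0.468), and nor did edgeR with a coefficient of variation of 10% (adjusted p = 0.344). RAW had 0 counts of Egln3 in both states, and hMPDM had 5.02 CPM after LPS and 4.33 CPM at rest.

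The 6 other HIF-1 targets did not move together in BMDM. Vegfa, the angiogenic growth factor, had 56.9 and 57.2 CPM after LPS, against 159 and 161 CPM at rest, a fall of log2 -1.49 ± 0.05 (adjusted p = 4.07e-21, edgeR). Both libraries after LPS lay far below both at rest, and this was the largest called fall among the 38 genes under each of the 4 scalings. Ndrg1, a stress-responsive gene, had 166 and 165 CPM after LPS, against 82.2 and 80.7 CPM at rest (log2 1.02 ± 0.05, adjusted p = 2.99e-18, edgeR). P4ha1, a catalytic subunit of collagen prolyl hydroxylase, had 175 and 185 CPM after LPS, against 102 and 103 CPM at rest (log2 0.82 ± 0.05, adjusted p = 4.88e-16, edgeR). Adm, the vasodilator peptide adrenomedullin, rested on few reads, with 8 and 17 counts after LPS and 1 and 1 at rest, a ratio of 24.2 (95% counting interval 6.05 to 211; adjusted p = 3.86e-06, edgeR). P4ha2, the sister subunit, was lower by log2 -0.16 ± 0.06 (adjusted p = 0.0305, edgeR), a call lost without the first BMDM library at rest (adjusted p = 0.169), the first after LPS (adjusted p = 0.102) or the second after LPS (adjusted p = 0.0648). DESeq2's Wald test did not call P4ha2 (adjusted p = 0.607). Bnip3, a mitophagy receptor, had no call (0.11, adjusted p = 0.381, edgeR).

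Over the 3 cell types, a fit with terms for cell type and for LPS called 17 of the 38 genes higher after LPS, against 25.0% of all genes, and 6 lower, against 24.2% (edgeR). Under all 4 scalings 12 were higher, against 13.0% of all genes, namely Slc2a6, Slc2a1, Hk2, Pfkl, Pfkp, Pfkfb3, Eno2, Slc16a3, Hif1a, Ndrg1, Adm and P4ha1. The 6 lower genes (Slc2a3, Pfkfb4, Slc16a1, Pdk2, Egln3 and Vegfa) were called under every scaling, against 24.1% of all genes. Here too a fall could hardly be lost by that rule, with 24.2% of all genes lower under TMM alone. Slc2a6 (3.45 ± 0.65, adjusted p = 0.00504, edgeR) and Slc2a1 (1.27 ± 0.07, adjusted p = 3.74e-05, edgeR) passed the test against a fold of 2, against 4.69% of all genes, Slc2a6 under all 4 scalings, against 3.92%, and 0 lower genes passed it (edgeR, 0 also at an unadjusted p under 0.05), against 1.24% (1.22% under all 4 scalings). BMDM gives 4 of the 8 libraries in this fit, and without BMDM 0 of the 38 genes were called (edgeR), with 11 higher and 0 lower at an unadjusted p under 0.05. Without single BMDM libraries the count of lower genes was 3 (without the first or the second at rest), 2 (without the first after LPS) or 4 (without the second after LPS). Egln3, with 0 counts in RAW and 5.02 CPM after LPS and 4.33 CPM at rest in hMPDM, had no call when any single 1 of the 4 BMDM libraries was left out (adjusted p between 0.191 and 0.234, edgeR), with a replicate block (adjusted p = 0.130, edgeR) or with DESeq2 (adjusted p = 0.144), and read 0.20 without BMDM. Adm had few reads outside BMDM, in hMPDM 2 counts with LPS and 0 without and in RAW 2 and 3, and it lost the call when any single BMDM library was left out (adjusted p between 0.0517 and 0.0996, edgeR). The same held for Slc2a3 (0.0612 to 0.0805) and Aldoa (0.0650 to 0.103), while Pfkfb4, Pdk2, Eno1 and Ldha lost the call without some of these libraries.

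In hMPDM and RAW the response compares 1 library with 1 library and has no test. In hMPDM, 5 of the 38 genes passed a 2-fold rise at a minimum of 5 CPM, against 7.98% of all genes, and 0 were 2-fold lower, against 5.61%. The 5 were Slc2a6, Slc2a1, Eno2, P4ha1 and Slc16a3, with library size scaling 2 genes were 2-fold higher and 2 lower, and with the BMDM-like share taken out 4 were higher and 1 lower. P4ha1 had 222 CPM in hMPDM after LPS and 99.7 CPM at rest, a ratio of 2.22 (2.05 to 2.40), and Slc16a3 had 84.0 and 34.8 CPM, a ratio of 2.41 (2.11 to 2.75). In RAW only Slc2a1 passed the same rule, against 2.07% of all genes higher and 0.923% lower. Between BMDM replicates of a state no listed gene passed it, against 0.0401% of all genes after LPS and 0.00803% at rest.

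The 13 genes higher in BMDM under all 4 scalings had hMPDM ratios between 1.42 (Hk1) and 15.3 (Slc2a6) with a median of 1.90, and RAW ratios between 0.860 (Hk1) and 2.14 (Slc2a1) with a median of 1.35, leaving out Adm with under 10 counts there. For the 9 lower genes the hMPDM ratios ran between 0.605 (Slc2a3) and 1.24 (P4ha2), with a median of 0.711. In RAW the 6 of these with 10 counts or more ran between 0.801 (Egln1) and 0.954 (Vegfa). Pfkfb3, chosen here after its values were seen, had like ratios in each cell type, 1.63 in hMPDM, 1.77 in RAW and 1.54-fold in BMDM.

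At rest, hMPDM had lower levels of many of the listed genes than BMDM, and the largest gaps were in Ldhb, Egln3, P4ha2, Vegfa and Slc16a3. Of the 38 genes, 4 (10.5%) were higher in hMPDM, against 19.0% of all genes, and 19 (50.0%) lower, against 19.2% (edgeR, the single hMPDM library being assumed to vary as BMDM replicates do). Past a fold of 2 stood Aldoc as the single higher gene, against 1.32% of all genes, and 6 lower genes, against 2.76%, of which Pfkfb3 lost that call under at least 1 scaling. Without the fold threshold, DESeq2's Wald test called 2 higher and 14 lower, and a coefficient of variation of 10% left 2 higher and 12 lower (edgeR). The comparisons of hMPDM and RAW with BMDM share the same BMDM libraries. Aldoc had 143 CPM in hMPDM at rest, against 53.5 and 52.3 CPM in BMDM (log2 1.44 ± 0.06, adjusted p = 4.72e-19, edgeR). Slc16a3 had 34.8 CPM, against 100.3 and 92.8 CPM in BMDM (log2 -1.47 ± 0.07), and Vegfa 55.4 CPM, against 159 and 161 CPM (log2 -1.53 ± 0.06). P4ha2 had 11.4 CPM, against 56.7 and 54.4 CPM (log2 -2.28 ± 0.10), Egln3 4.33 CPM, against 29.0 and 28.0 CPM (log2 -2.72 ± 0.13), and Pfkfb3 45.7 CPM, against 107 and 102 CPM (log2 -1.19 ± 0.07). Ldhb had 4 counts in hMPDM, against 230 in both BMDM libraries together, a ratio of 0.0391 (0.0106 to 0.101).

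The other 3 genes higher in hMPDM at rest were Slc2a6 (log2 0.65 ± 0.07), Pfkfb4 (0.32 ± 0.07) and Ndrg1 (0.15 ± 0.06), of which Ndrg1 had no call without the first (0.16, adjusted p = 0.0714) or the second BMDM library at rest (0.14, adjusted p = 0.152, edgeR). Slc2a1, unlike Slc2a6, was lower, with 39.7 CPM in hMPDM, against 81.8 and 76.9 CPM in BMDM (log2 -0.996 ± 0.07, adjusted p = 5.75e-13, edgeR). No call was made for Hif1a (log2 -0.02 ± 0.05, adjusted p = 0.765, edgeR), Hk2 (0.14 ± 0.06) or Hk3 (0.06 ± 0.04). Among the bulk enzymes Aldoa (-0.49), Pkm (-0.34), Ldha (-0.24) and Tpi1 (-0.15) were lower in hMPDM under all 4 scalings, the last with no call without the first BMDM library at rest (-0.12, adjusted p = 0.106, edgeR). The other 8 lower genes ran between -1.27 (Pdk2) and -0.37 (Pfkl) and were Slc2a3, Hk1, Pfkl, Pfkp, Eno2, Pdk2, Egln1 and Bnip3.

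RAW at rest had higher levels of all 3 glucose transporters, both lactate carriers and 5 of 7 lower-glycolysis genes than BMDM, and little or no Vegfa, Egln3, P4ha2 and Ldhb. Of the 38 genes, 18 (47.4%) were higher in RAW, against 27.1% of all genes, and 15 (39.5%) lower, against 31.3% (edgeR), of which 10 were lower under all 4 scalings, against 23.0%. All 3381 genes called higher with TMM stayed so under all 4 scalings, a rule that thus removed no rise. DESeq2's Wald test called 15 higher and 10 lower, and edgeR with a coefficient of variation of 10% gave the same counts. DESeq2 did not call Pgam1, Hk2, Adm or Eno2, the last with 11.2 CPM in RAW at rest, against 6.75 and 6.54 CPM in BMDM, and it added Aldoa. On the lower side it did not call Hk1, Pfkm, Pfkfb4, Pdk2 or Hif1a. The test against a fold of 2 called 5 higher, against 5.72% of all genes, and 5 lower, against 8.91%, and under all 4 scalings the same genes passed, against 5.72% and 7.46% of all genes. Slc16a1 had 197 CPM in RAW at rest, against 26.9 and 26.3 CPM in BMDM, a 7.40-fold difference (log2 2.89 ± 0.08, adjusted p = 1.21e-22, edgeR). Slc2a6 had 171 CPM, against 44.2 and 40.7 CPM (log2 2.01 ± 0.09), and Slc2a3 47.3 CPM, against 14.3 and 12.8 CPM (log2 1.81 ± 0.14). Gapdh (1.34 ± 0.17) and Eno1b (124 counts, against 1 in both BMDM libraries, a ratio of 1212 with an interval of 214 to 48267) were also past a fold of 2, both genes of mostly shared sequence. With Eno1 and Eno1b summed, the lower Eno1 of RAW (-0.39) became -0.0177 with no call.

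On the lower side, Vegfa had 6.28 CPM in RAW at rest, against 159 and 161 CPM in BMDM (log2 -4.67 ± 0.15, adjusted p = 6.92e-21, edgeR). Egln3 had 0 counts in RAW, against 1064 in both BMDM libraries, at least 36.3-fold lower, and Ldhb 0 counts, against 230, at least 7.84-fold lower, both set against 3 counts in RAW (0.784 CPM). The exact 95% counting bounds were 29.4-fold for Egln3 and 6.33-fold for Ldhb. P4ha2 had 2 counts, against 2072, a ratio of 0.00944 (0.00114 to 0.0341). Pfkfb3 had 35.3 CPM, against 107 and 102 CPM (log2 -1.56 ± 0.11). The bulk enzymes Tpi1 (0.76), Pkm (0.61) and Ldha (0.71) were higher in RAW under all 4 scalings, and Hk3 was lower (-0.92). So were Pdk2 (-1.59), Egln1 (-1.10), Pfkp (-0.60) and Pdk1 (-0.57), while Pdk3 (1.15), Aldoc (1.15), Pfkl (0.92), Slc16a3 (0.75) and Slc2a1 (0.61) were higher. Pdk2 had 9 counts in RAW at rest, and DESeq2 did not call it. Hif1a (-0.28), Hk1 (-0.24), Pfkfb4 (-0.41), Pfkm (-0.54) and Eno1 were called lower with TMM but not with library size scaling. Without the second BMDM library at rest, the calls of Pgam1 (0.34, adjusted p = 0.0751) and Adm (3.45, adjusted p = 0.0540) were lost (edgeR), Adm having 3 counts in RAW and 2 in BMDM.

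**Figure D5:**
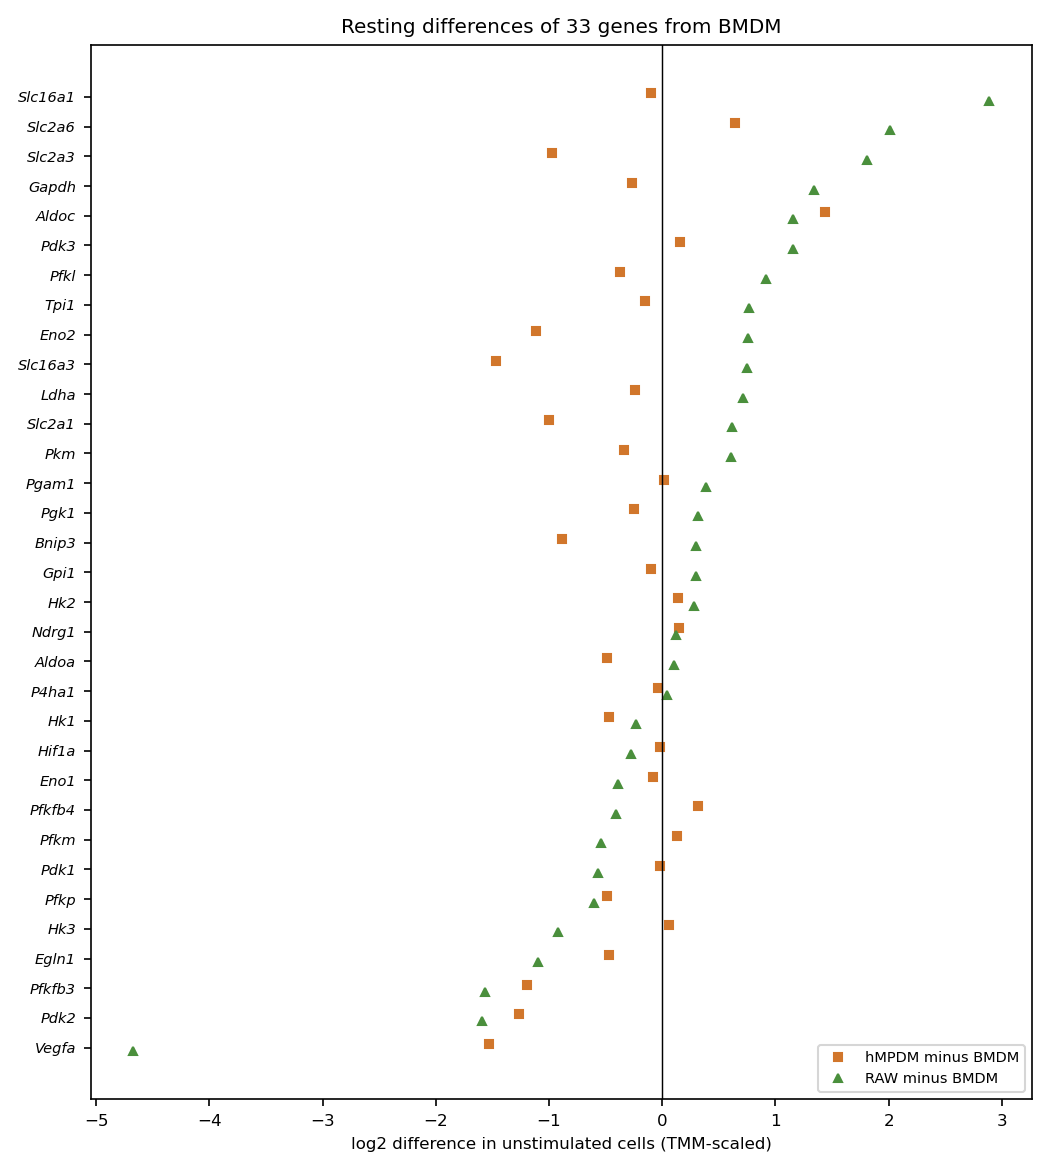
Log2 difference of unstimulated hMPDM (squares) and RAW (triangles) from unstimulated BMDM for 33 of the 38 genes, sorted by the RAW value; Adm, Egln3, Eno1b, Ldhb and P4ha2 have too few counts in a group and are left out. Slc16a1 is the highest RAW point (2.89) and Vegfa the lowest (-4.67), and Aldoc is the highest hMPDM point (1.44).

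The signed log2 response to LPS differed between hMPDM and BMDM in 8 of the 38 genes, higher in hMPDM in 5 and lower in 3, against 3.96% and 3.89% of all genes, and 0 were past a fold of 2 (edgeR, 0 also at an unadjusted p under 0.05), against 0.0642% and 0.185%. Each hMPDM state is 1 library, and these calls turn on the fitted spread and the test used. The run at a coefficient of variation of 10% also used a likelihood ratio test in place of the F test. With a coefficient of variation of 10% in place of 2.38%, 0 were higher (2 at an unadjusted p under 0.05, edgeR) and only Hk2 lower. DESeq2's Wald test called 0 higher (4 unadjusted) and 2 lower, Hk2 and Hif1a, and gave no adjusted p for Eno2. Hk2 responded less in hMPDM by log2 -1.05 ± 0.09 (adjusted p = 1.33e-09, edgeR), as did Hif1a (-0.46 ± 0.08, adjusted p = 8.69e-05) and Slc2a6 (-0.37 ± 0.09, adjusted p = 0.00447). The Vegfa response was higher (0.78 ± 0.14, adjusted p = 3.06e-04, edgeR), at 33.8 CPM in hMPDM after LPS and 55.4 CPM at rest. Higher responses were also called for Eno2 (0.95 ± 0.27), P4ha1 (0.33 ± 0.08), Pkm (0.23 ± 0.07) and Aldoa (0.20 ± 0.06), the last with no call without the first (0.20, adjusted p = 0.0993) or second BMDM library at rest (0.20, adjusted p = 0.102, edgeR). For Slc2a1 the difference was 0.04 ± 0.11 and for Slc16a3 0.22 ± 0.11, neither called. The Aldoa call was also lost under at least 1 scaling, and the other 7 calls held under all 4, with 3.60% of all genes higher and 3.87% lower by that rule. With the share estimated from the 16 near-absent genes taken out of the hMPDM counts after LPS, 4 genes had a higher and 4 a lower response.

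The signed log2 response to LPS was lower in RAW than in BMDM in 13 of the 38 genes, against 12.7% of all genes, and higher in 3, against 10.0%; 8 of the 13 held under all 4 scalings, against 7.91%. With a coefficient of variation of 10%, 5 were lower (Slc2a6, Hk2, Hk1, Pfkl and Adm) and 1 higher (Vegfa, edgeR). DESeq2's Wald test called 8 lower and 1 higher (Vegfa), and gave no adjusted p for Adm. With library size scaling alone, 8 were lower and 9 higher. Slc2a6 had the largest difference among genes with 10 counts or more, by log2 -3.60 ± 0.11 (adjusted p = 6.04e-21, edgeR), and was the single gene past a fold of 2, against 2.95% of all genes, or 2.17% under all 4 scalings. On the higher side 0 genes passed it (edgeR, 0 also at an unadjusted p under 0.05), against 0.891%, and the same share under all 4 scalings. Lower responses that held under all 4 scalings were those of Hk2 (-1.12 ± 0.11), Hk1 (-0.90 ± 0.10), Pfkl (-0.88 ± 0.10), Ndrg1 (-0.77 ± 0.12), Hif1a (-0.62 ± 0.10), Slc16a3 (-0.59 ± 0.10) and Adm, which had 2 and 3 counts in RAW. Vegfa (1.42 ± 0.38, adjusted p = 0.00629, edgeR), Slc2a3 (0.83 ± 0.21) and Slc16a1 (0.59 ± 0.13) had the higher responses. All 3 were lower after LPS in BMDM, and their RAW ratios were 0.954 (0.533 to 1.72), 0.940 (0.766 to 1.15) and 0.804 (0.725 to 0.891). The Slc2a3 call was lost without the second BMDM library after LPS (0.64, adjusted p = 0.0568), and that of Tpi1 without the second at rest (-0.18, adjusted p = 0.114) or the second after LPS (-0.17, adjusted p = 0.0785, edgeR). Of the rest, Hk3 (-0.30 ± 0.08), Pfkp (-0.33 ± 0.10), Eno2 (-0.87 ± 0.29) and P4ha1 (-0.52 ± 0.11) had no call with library size scaling, and Tpi1 (-0.21) reversed to 0.06 without a call. Slc2a1 was not called (-0.21 ± 0.10, adjusted p = 0.137, edgeR).

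Of other genes of these pathways, 25 of 40 further glycolysis and pyruvate genes were tested, and 7 were higher and 6 lower in BMDM after LPS, against 31.7% and 31.1% of all genes, of which 1 and 6 held under all 4 scalings, against 16.0% and 31.0% of all genes. The largest called falls were Pdp1, a pyruvate dehydrogenase phosphatase (log2 -1.41 ± 0.08), Slc16a6, a monocarboxylate transporter family member (-1.26 ± 0.05), and Pfkfb2 (-0.87 ± 0.14), and the largest rise was Dld, a shared subunit of mitochondrial dehydrogenase complexes (0.71 ± 0.04). Of the mitochondrial pyruvate carrier genes, Mpc1 (0.59 ± 0.16) was higher but not under every scaling, and Mpc2 was higher with TMM (0.32 ± 0.09) and reversed to -0.0456 with library size. In the pentose phosphate pathway, which branches off at glucose 6-phosphate, 4 of 10 genes were higher and 2 lower, against those same 31.7% and 31.1%, and 1 and 2 held under all 4 scalings, against 16.0% and 31.0%. Pgd, the second dehydrogenase of the pathway, had the largest rise (0.51 ± 0.03), which held, while Rpe (0.31 ± 0.06) and the first dehydrogenase G6pdx (0.23 ± 0.04) were higher with TMM and read -0.0568 and -0.14 with library size. Shpk, sedoheptulose kinase, had the largest fall (-1.50 ± 0.21), at 1.51 and 3.16 CPM after LPS, against 7.23 and 7.41 CPM at rest, and Prps2, which makes phosphoribosyl pyrophosphate, was lower by log2 -0.23 ± 0.06. The median log2 difference was -0.00124 for the glycolysis list, -0.02 for the pentose phosphate genes and -0.02 for all genes.

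Among HIF subunits and regulators, 9 of 18 tested genes were higher in BMDM after LPS and 1 lower, against 31.7% and 31.1% of all genes. Under all 4 scalings 4 and 1 held, against 16.0% and 31.0% of all genes, and the median log2 difference was 0.26. Cited2, which competes with HIF for its coactivators, had 195 and 168 CPM after LPS, against 53.1 and 54.9 CPM at rest (log2 1.73 ± 0.06, adjusted p = 1.12e-21, edgeR). Siah2, a ubiquitin ligase that acts on the hydroxylases, rose by 0.64 ± 0.09 and Vhl, which targets hydroxylated HIF for degradation, by 0.56 ± 0.07, while Epas1, the HIF-2 alpha subunit, fell (log2 -0.44 ± 0.15). Of 39 tested further HIF-1 targets, 14 were higher and 13 lower, against 31.7% and 31.1% of all genes. Under all 4 scalings 10 and 13 held, against 16.0% and 31.0%, and the median log2 difference was -5.61e-05. Nos2, the inducible nitric oxide synthase, had 263 and 237 CPM after LPS, against 0.478 and 0.436 CPM at rest (log2 9.05 ± 0.11, adjusted p = 2.16e-32, edgeR). Bhlhe40, a transcription factor, had 35.2 and 29.2 CPM after LPS, against 122 and 128 CPM at rest (log2 -1.998 ± 0.07, adjusted p = 1.30e-21, edgeR). Tpbg had 8.46 and 7.67 CPM after LPS, against 0.0597 and 0 CPM at rest, and Lox, the collagen cross-linking lysyl oxidase, 11.03 and 9.72 CPM, against 0.179 and 0 CPM. Zfp395 had 3.93 and 4.58 CPM, against 25.5 and 26.6 CPM at rest (log2 -2.58 ± 0.13), and Angptl4, a lipase inhibitor, 0 counts after LPS, against 0.299 and 0.484 CPM at rest. The 6 genes used to check the LPS response were all higher, Il1b for example at 555 and 552 CPM after LPS, against 2.15 and 1.45 CPM at rest.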

How the data were processed

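Poly(A) RNA-seq counts of 43346 genes in 8 libraries were taken as deposited. The authors made whole-number counts per gene, not normalized, and cutadapt, STAR, SAMtools, bedtools, featureCounts and the build mm10 are named in the submitters' processing notes; the sources used here give no strand setting, multi-mapping rule or versions. Gene symbols came from a reference table that matched 42462 gene IDs. The count table held 2 further value columns, 1 per state, whose headers name hMPDM but match no sample's labels; they were not analysed here. Groups were taken from the labels' titles, and totals of 3116434 to 19307312 counts limit precision as given in the text.

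Genes were filtered with filterByExpr (edgeR 4.0.16, R 4.3.3, minimum count 10), leaving 12461. Levels are TMM-scaled CPM, per kilobase of the counted length where genes are compared. The counted length can exceed that of the main transcript, as for Hk1 (8532 against 3851 bases) and Eno1 (5379 against 2027 bases). Isoform shares depend on which length is used. Tests were edgeR quasi-likelihood F tests with 1 coefficient per group (2 residual degrees of freedom, or 4 for the response common to the cell types). Benjamini-Hochberg adjustment ran over all tested genes, and glmTreat tested against a fold of 2. The F test, but not glmTreat, was checked on simulated data for the BMDM response and for hMPDM against BMDM at rest. All simulated libraries had the same spread, so that check does not bear on the assumption made next. Single libraries of hMPDM and RAW enter tests on the assumption that they vary as BMDM replicates do. Their own LPS ratios have no test and carry exact 95% counting intervals, which cover counting error only, and single-library calls needed a fold of 2 and 5 CPM. Replicate numbers of BMDM were not treated as pairs, since deviations of same-numbered libraries had a correlation of -0.0401 and nothing in the labels says that a number marks a shared culture. Alternatives were other scalings (library size, upper quartile, DESeq2 1.42.0 size factors), DESeq2's Wald test, no filter, a coefficient of variation of 10%, a replicate block and leaving out libraries. The run at 10% used edgeR's likelihood ratio test with the same spread for every gene, so it changed the test as well.

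The 38 genes, the further pathway lists and the rules were chosen with earlier results of these data known. Full values were given for genes called in BMDM with an estimate of at least 1.5-fold, for genes past the fold of 2 in another comparison and for isoform orders. Of each further list, the 3 largest called rises and falls are named. Promoters and motif matches came from the RefSeq promoter table (GRCm38.p6).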

Additional observations from a re-analysis of the deposited data

Results flagged for a closer look

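The LPS response of 8 genes differed between hMPDM and BMDM in a test of the difference itself (edgeR, adjusted p under 0.05). The log2 response was higher in hMPDM for Eno2 (0.95), Vegfa (0.78), P4ha1 (0.33), Pkm (0.23) and Aldoa (0.20), and lower for Hk2 (-1.05), Hif1a (-0.46) and Slc2a6 (-0.37). For Hk2 the response was 0.55 in hMPDM and 1.60 in BMDM, while the levels at rest differed by 0.14. In the hMPDM library after LPS, the 16 genes near absent at rest, chosen on their values, stood at 10.8% of their BMDM level. With that share taken out, 4 genes had a higher and 4 a lower response. Where the reads of these 16 genes come from was not tested. With a coefficient of variation of 10% only Hk2 was called (0 higher, 2 at an unadjusted p under 0.05, edgeR), and DESeq2's Wald test called 0 higher (4 unadjusted) and Hk2 and Hif1a lower.

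In 16 genes the response differed between RAW and BMDM in the same test. The log2 response was higher in RAW for Vegfa (1.42), Slc2a3 (0.83) and Slc16a1 (0.59). It was lower for Slc2a6 (-3.60), Hk2 (-1.12), Hk1 (-0.90), Pfkl (-0.88), Eno2 (-0.87), Ndrg1 (-0.77), Hif1a (-0.62), Slc16a3 (-0.59), P4ha1 (-0.52), Pfkp (-0.33), Hk3 (-0.30) and Tpi1 (-0.21), of which Tpi1 reversed to 0.06 with library size scaling. With a coefficient of variation of 10%, edgeR called Vegfa higher and Slc2a6, Hk2, Hk1, Pfkl and Adm lower, and DESeq2's Wald test called 1 higher and 8 lower. The value for Adm was -5.19 and rests on 2 and 3 counts in RAW. Slc2a6 stood at 171 CPM in RAW at rest, against 44.2 and 40.7 CPM in BMDM at rest, and at 279.8 CPM in RAW after LPS, against 806 and 864 CPM in BMDM after LPS.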

How the results depend on the processing

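Over 6 tested comparisons, 2755 of 3063 recomputed values and counts kept their side of the threshold, and their direction where called. Of the rest, 198 lost a call, 61 gained one, 21 reversed and 28 counts over all genes moved by over 1.5 times. Counts of the listed genes, given below, are not part of the 3063. A change of sign with no call in either setting was counted as kept and is not listed below. Pdk3 in BMDM is an example, with 0.24 under TMM and -0.12 under library size. The 13 rises of BMDM that held under 4 scalings are the ones that do not turn on scaling. All 9 falls held too, but upper quartile and library size shift BMDM values down, so this rule could hardly remove a fall. Over all genes, 3867 of 3870 falls held, against 1999 of 3945 rises. With library size scaling, BMDM had 13 genes higher and 20 lower, the common response 14 lower, and the RAW minus BMDM response 9 higher and 8 lower. The same scaling reversed, in BMDM, Aldoa (-0.18), Tpi1 (-0.26), Gapdh (-0.32), Pgam1 (-0.0489), Eno1 (-0.12), Pkm (-0.34), Ldha (-0.12) and Bnip3 (-0.26). In the common response it reversed Gpi1 (-0.25), Aldoa (-0.0985), Tpi1 (-0.23), Eno1 (-0.0500), Pkm (-0.21), Ldha (-0.0932) and Bnip3 (-0.30), and in the RAW minus BMDM response Aldoa (0.16) and Tpi1 (0.0620). Upper quartile scaling gave 14 lower genes in BMDM, with Aldoa at -0.00677, Tpi1 at -0.0879 and Pkm at -0.16, and 6 higher in the RAW minus BMDM response. DESeq2's Wald test called 3 lower in BMDM, 2 higher in hMPDM at rest, 0 with a higher hMPDM minus BMDM response (4 at an unadjusted p under 0.05), and 1 higher and 8 lower in RAW minus BMDM. With the coefficient of variation set at 10% these were 5 lower in BMDM, 2 higher and 12 lower in hMPDM at rest, 0 higher (2 unadjusted) and 1 lower in the hMPDM minus BMDM response, and 1 higher and 5 lower in RAW minus BMDM. A replicate block left 19 higher and 9 lower in BMDM, 15 and 5 in the common response, and 3 higher in the hMPDM minus BMDM response. It was not used for the main results, since the labels do not say whether a number marks a shared culture. Leaving out 1 BMDM library gave 2 to 4 lower genes in the common response, leaving out hMPDM 3, and leaving out BMDM 0 higher (11 unadjusted) and 0 lower (0 unadjusted), with Egln3 at 0.20. In single libraries, hMPDM had 2 higher and 2 lower with library size, 9 and 2 at 1.5-fold, and 1 lower with the BMDM-like share taken out, while RAW had 1 lower at a minimum of 1 CPM and 4 higher at 1.5-fold. Beyond the number of libraries or genes that an alternative itself changes, the cause was not tested. Depth limits RAW most, where 3 counts are 0.784 TMM-scaled CPM at rest and 0.642 after LPS. Promoter shares were computed for GCGTG too (56.0%).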
